A study of Caenorhabditis elegans with 9 samples.

Results

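Worms exposed to a high dose (0.03% w/v) of sodium arsenite were compared directly with worms exposed to a low dose (0.003% w/v), gene by gene, on Affymetrix C. elegans arrays. The difference is taken between 6 of the 9 arrays of the study, 3 per dose. The 3 arrays of unexposed control worms enter only the estimate of the spread, and their values are given beside the comparison. All were wild type N2 worms, bleached and synchronized, and kept in CeHM, a liquid medium without bacteria. The worms of both doses were exposed to arsenite for 6 h at 22 °C. The sample labels give the larval stage as L3, the methods as L1 and the results text as L4. Whole worms were extracted, so each value averages over all tissues, and fewer cells of a type and less RNA per cell cannot be told apart. Each sample is labelled as a biological replicate with its own RNA extraction, but no source says whether the replicates were separate cultures, so the p-values reflect only how much these samples vary, and that may be technical variation.

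The values are log2 signals, 1 per probeset and array, so a difference of 1 is a 2 fold difference in signal. Of 22625 probesets, 20766 are assigned to 1 gene, which leaves 17118 genes, each read from the probeset that was brightest on average over the 9 arrays. Array medians lay between 8.42 and 8.52. Across genes, which are not independent replicates, the correlation between 2 arrays was 0.940 to 0.952 within a group and 0.914 to 0.933 between a high dose and a low dose array. No array stood apart from the others of its group. A group mean is called dim here if it lies under 6.26, the 25th percentile of the gene means. Probesets marked _s_at or _x_at can also detect related transcripts, and 3605 and 644 genes rest on them.

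Arsenite binds thiol groups, and cells meet it with glutathione, with export pumps, with chaperones and with the degradation of damaged proteins. In C. elegans the factor SKN-1 drives glutathione and glutathione S-transferase genes, HSF-1 drives heat shock genes, and p38 and JNK kinase cascades relay metal stress. Damaged proteins leave through the proteasome or are enclosed in autophagosomes and digested in lysosomes.

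Chaperone, proteasome, autophagy and stress regulator genes were more often higher than lower at the high dose, and genes of the respiratory chain, central carbon metabolism, lysosomal proteolysis, fatty acid oxidation and the hypodermis more often lower. Of all genes tested, 2880 (16.8%) differed between the doses by limma, with a Benjamini-Hochberg adjusted p of 0.05 or less over 17118 genes and a difference of 1.2 fold or more. These are the genes called below. At the high dose 1256 (7.34%) were higher and 1624 (9.49%) were lower than at the low dose. The difference reached 2 fold in 635 higher and 653 lower genes, 4 fold in 177 and 135, and 16 fold in 17 and 8. The 3 arrays of one dose all lay above the 3 of the other in 5821 genes (34.0%), and all called genes were among them. The median absolute difference of called genes was 0.93, and the median difference of all genes tested was -0.01. An unadjusted limma p under 0.05 was reached by 4934 of the 17118 genes. The standard error of a difference was 0.22 at the median over all genes, 0.15 above the median level and 0.80 in the dimmest 25%, so that small differences of dim genes were not detectable. In the same model 266 genes (1.55%) differed between low dose and control, a comparison that shares the low dose arrays.

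**Figure D1:**
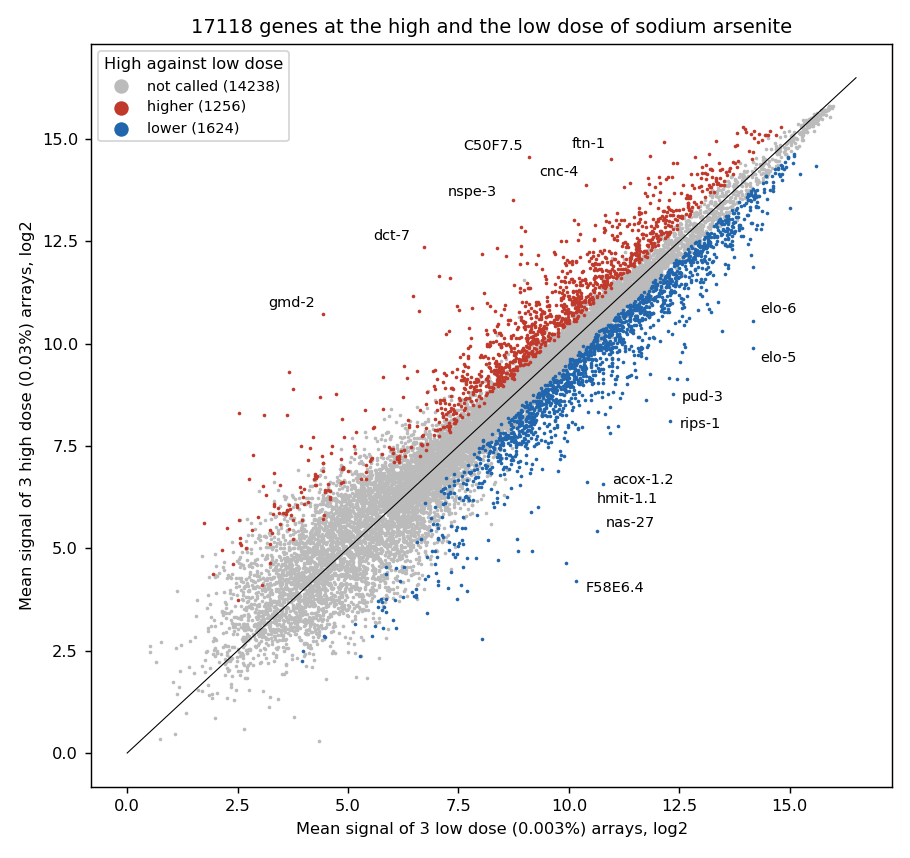
Mean log2 signal of the 3 low dose arrays (x axis) against that of the 3 high dose arrays (y axis), 1 point per gene. The 1256 genes called higher at the high dose lie above the diagonal and the 1624 called lower below it. The scatter widens at dim levels.

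The gene C50F7.5, for which no function is given here, read 9.15, 9.37 and 8.74 on the low dose arrays and 14.55, 14.56 and 14.57 on the high dose arrays. They differed by 5.47 (SE 0.17, adjusted p = 1.41e-05, limma). The control arrays, at 9.34 to 9.55, lay near the low dose. Another, dct-7, takes its name from a screen of DAF-16 targets for effects on germ line tumours. It read 6.73, 7.17 and 6.25 at the low dose against 12.57, 12.45 and 12.05 at the high dose, a 49.9 fold difference. Its control arrays, at 5.99 to 6.41, overlapped the low dose arrays. F15E6.3 and F15E6.4, whose sequence names place them on the same clone as dct-7 (F15E6.8), stood 3.97 (SE 0.22) and 3.47 (SE 0.32) higher at the high dose, both on _s_at probesets.

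The largest difference in fold was that of gmd-2, a GDP-mannose dehydratase gene of the fucose pathway. It was dim at the low dose, with 3.75, 4.96 and 4.58, and read 10.77, 10.78 and 10.60 at the high dose, a 78.1 fold difference. T15D6.8 and ifas-2 (5.76 and 5.66 higher) and K01D12.1 (5.13 higher) were also dim at the low dose, so the size of their differences rests on signals in the dimmest 25%. The arrays of the 2 doses did not overlap for any of these genes.

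Members of some families stood high together. All 5 measured genes of the nematode-specific peptide family E were higher at the high dose, by 2.40 to 4.78. For nspe-3 the arrays read 9.33, 8.75 and 8.13 at the low dose against 13.43, 13.53 and 13.60 at the high dose, against 6.14 to 7.53 in control worms. Of these 5 genes 4 rest on _x_at probesets, and nspe-1, on an unmarked probeset, stood 2.58 (SE 0.24) higher. Of 52 measured oac genes, homologs of O-acyltransferases, 8 were higher and 1 lower. The 2 largest of these differences were those of oac-14 (4.59, SE 0.23) and oac-31 (4.31, SE 0.25), both on _s_at probesets and both with low dose arrays that overlapped the control arrays. Both families were chosen after their values were seen. The F-box gene mfb-1, whose mammalian homolog atrogin-1 targets muscle proteins for degradation, read 9.39, 8.49 and 8.86 at the low dose against 12.79, 13.01 and 12.75 at the high dose. Other bright signals came from cnc-4, a caenacin antimicrobial peptide gene (10.4 to 13.9, a difference of 3.48, SE 0.11), and nhr-17, a nuclear hormone receptor gene (8.0 to 12.2, a difference of 4.16, SE 0.39).

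Among genes lower at the high dose were several fatty acid elongase genes. Of 8 measured elo genes, a family chosen after its values were seen, 6 were lower and 2 not called, with differences from -4.27 to -0.05. The elongase gene elo-5, needed to make branched-chain fatty acids, read 14.24, 14.20 and 14.08 at the low dose against 10.13, 9.73 and 9.84 at the high dose, so that it fell by 4.27 (SE 0.13, adjusted p = 1.41e-05, limma). Its partner in that pathway, elo-6, fell by 3.60 (SE 0.14) and elo-2, which elongates palmitic acid, fell by 2.70 (SE 0.11). Their low dose means lay just below the control means, at 14.2 against 14.4 for elo-5. In acox-1.2, which encodes an acyl-CoA oxidase of peroxisomal fatty acid shortening, the arrays read 10.66, 10.95 and 10.74 at the low dose against 6.23, 6.61 and 6.85 at the high dose. The doses were far apart in each of these genes.

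F58E6.4 had the largest decrease, from 9.94, 10.55 and 10.03 at the low dose to 3.86, 5.75 and 3.02 at the high dose, where it was dim. The astacin metalloprotease gene nas-27 read 10.58, 10.48 and 10.85 at the low dose against 5.33, 6.75 and 4.20 at the high dose, also dim there. Its high dose arrays were widely spread, yet none came near the low dose arrays. The gene rips-1 fell from a mean of 12.3 to 8.1, and its low dose arrays (12.15 to 12.54) already lay below the control arrays (13.52 to 13.57). The myo-inositol transporter gene hmit-1.1, known from osmotic stress, had its highest mean at the low dose, 10.4 against 9.7 in control worms and 6.6 at the high dose.

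**Figure D2:**
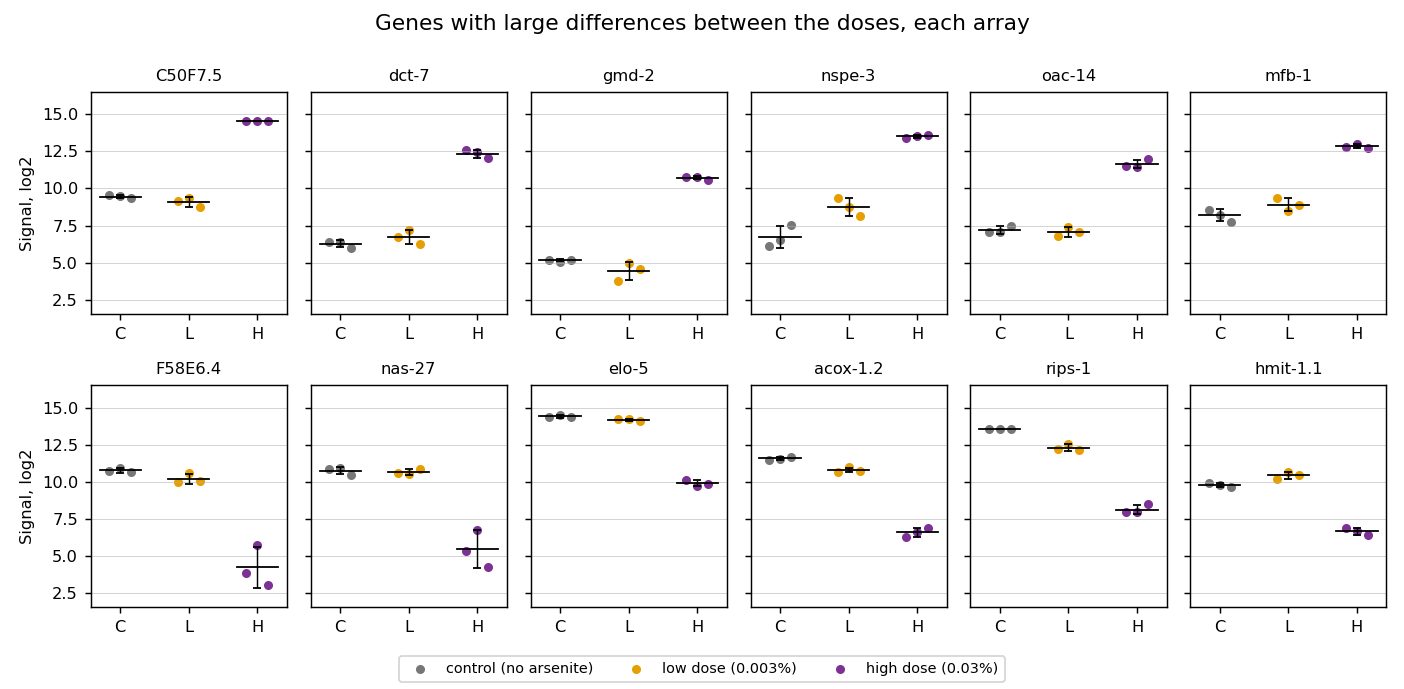
Log2 signal on each of the 9 arrays for 12 genes with large differences between the doses (C control, L low dose, H high dose). Points are arrays, horizontal lines group means and error bars 1 SD (n = 3). In all 12 genes the low and high dose arrays are separated. In some, such as C50F7.5, dct-7, oac-14 and elo-5, the low dose mean lies near the control mean.

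Gene families of detoxification were divided. Of 45 glutathione S-transferase genes, whose enzymes couple glutathione to toxic compounds, 14 were higher and 10 lower at the high dose, with a median difference of -0.09. With unmarked probesets alone, which test fewer genes, 12 were higher and 5 lower. The omega-class gene gsto-2 read 7.57, 7.06 and 7.21 at the low dose against 10.13, 10.34 and 10.45 at the high dose, and gsto-3 stood 2.44 (SE 0.13) and gst-9 2.70 (SE 0.24) higher. In humans an omega-class enzyme reduces arsenic compounds. The genes gst-33 (fell by 3.24, SE 0.45), gst-19 (fell by 2.64, SE 0.28) and gst-26 (fell by 2.14, SE 0.12) were lower at the high dose. The gene gst-4, a common reporter of SKN-1 activity, did not pass the test. Its means were 15.3 and 15.5 at the low and high dose, with an interval of the difference from -0.10 to 0.44, against 12.9 in control worms, and both dose means lay close to 16.44, the highest value on any array.

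Of 64 UDP-glucuronosyltransferase genes, which couple sugars to toxic compounds, 12 were higher and 11 lower, led by ugt-54 (4.33 higher, dim at the low dose) and ugt-57 (fell by 1.96). Without low dose replicate 1 or low dose replicate 3 the lower count was 7. Of 73 cytochrome P450 genes, whose enzymes oxidize foreign compounds, 7 were higher and 5 lower (3 lower without high dose replicate 3 or low dose replicate 3), a share near that of all genes. Of 52 dehydrogenase genes of the short-chain, alcohol and aldehyde classes 4 were higher and 15 lower. The aldehyde dehydrogenase gene alh-13 fell by 1.67 and sdz-8, one of the genes the study tested, stood 1.01 higher.

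Genes of glutathione synthesis and NADPH supply went both ways, with a median difference of 0.01. The gene gcs-1, for the rate-limiting enzyme of glutathione synthesis, read 12.79, 13.10 and 12.83 at the low dose against 13.96, 14.13 and 14.34 at the high dose. Its regulatory partner gclm-1 stood 1.28 (SE 0.15) higher, the glutathione synthetase gene gss-1 1.08 (SE 0.13) and cth-2, of cysteine supply, 1.28 (SE 0.18). In the same list dao-3, a folate cycle dehydrogenase gene, fell by 1.84 (SE 0.10) and the cytosolic isocitrate dehydrogenase gene idh-1 fell by 0.97. In this list of 18 genes for glutathione synthesis and NADPH supply 7 were higher and 5 lower. Of 30 antioxidant enzyme genes 5 were higher, among them the extracellular superoxide dismutase gene sod-4 (1.60, SE 0.16), gpx-2 and the methionine sulfoxide reductase gene msra-1 (1.36), and 5 were lower, among them gpx-5 and the mitochondrial peroxiredoxin gene prdx-3 (fell by 0.71). For sod-1, the cytosolic superoxide dismutase gene, the difference was 0.04, with an interval from -0.24 to 0.33.

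Transporters and metal-binding proteins also went both ways. The half-molecule ABC transporter gene hmt-1, needed for cadmium tolerance, read 11.09, 11.15 and 11.00 at the low dose against 13.20, 13.02 and 13.33 at the high dose, and the export pump gene mrp-1 stood 1.21 (SE 0.16) higher. The P-glycoprotein gene pgp-1 went the other way, from 9.75, 9.97 and 9.94 to 7.22, 7.95 and 7.96. Of 51 ABC transporter genes 6 were higher and 8 lower, and the lower count was 5 without high dose replicate 1 or 2 or low dose replicate 3. Of 34 metal response and arsenite handling genes 5 were higher and 7 lower. The copper pump gene cua-1 stood 1.52 (SE 0.13) higher, while the aquaporin gene aqp-1 fell by 1.45 and the zinc transporter family gene zipt-2.3 fell by 2.84.

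The metallothionein genes differed from each other. The level of mtl-1 was 9.99 at the low dose against 9.93 at the high dose, a difference of -0.06 with an interval from -0.36 to 0.24, and both lay below the control mean of 12.4. That of mtl-2, on an _x_at probeset, fell by 1.69 (SE 0.11) from a low dose mean of 15.02, near the control mean of 15.46.

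Iron storage and haem genes included some large increases. The ferritin gene ftn-1, which stores iron, read 10.89, 10.98 and 10.99 at the low dose against 14.51, 14.46 and 14.57 at the high dose. The difference was 3.56 (SE 0.12, adjusted p = 1.41e-05, limma), and control worms had 8.23 to 8.56. The second ferritin gene, ftn-2, stood 0.61 (SE 0.11) higher, and hrg-3, which carries haem between tissues, stood 3.32 (SE 0.40) higher from a dim level. Iron exporter homologs were split, with fpn-1.1 1.17 (SE 0.14) higher and fpn-1.2 falling by 1.74 (SE 0.18). The aconitase gene aco-1, whose mammalian homolog senses iron, fell by 1.37 (SE 0.15). In all, 4 of 25 iron and haem genes were higher and 5 lower.

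**Figure D3:**
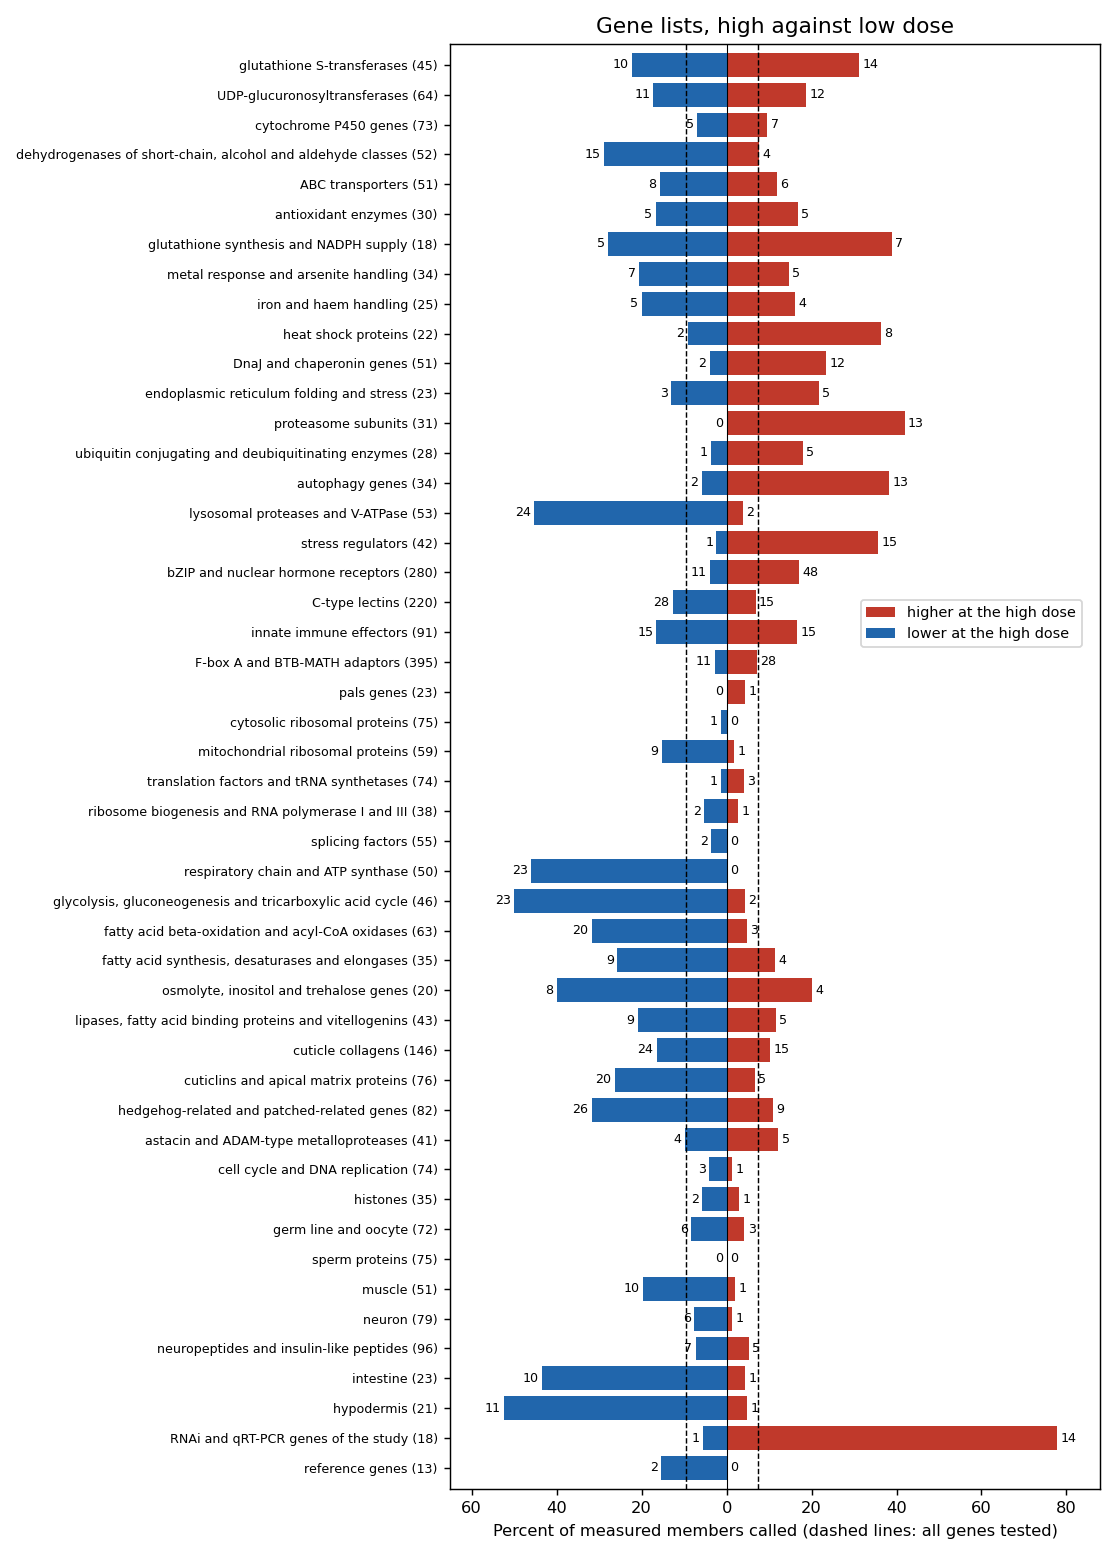
Percent of each list's measured members called higher (right) or lower (left) at the high dose, with the number of genes beside each bar and the number measured in parentheses. Dashed lines mark the shares over all genes tested, 7.34% higher and 9.49% lower. Proteasome, autophagy and stress regulator genes extend to the right, and respiratory chain, central carbon, lysosomal, intestine and hypodermis genes to the left.

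Chaperone genes were more often called higher than lower, although most members were not called. Of 22 heat shock protein genes 8 were higher and 2 lower. The inducible hsp-70 read 11.67, 12.19 and 11.83 at the low dose against 13.68, 13.80 and 13.40 at the high dose, against 7.84 to 8.35 in control worms. The small heat shock gene hsp-16.2 stood 1.01 (SE 0.18) higher, and hsp-43, another small heat shock gene, 1.98 (SE 0.18) higher with low dose arrays that overlapped the control arrays. Not all heat shock genes were higher, since hsp-12.1 fell by 1.58 (SE 0.25) and hsp-3, a chaperone of the endoplasmic reticulum, fell by 0.65. Of 51 DnaJ and chaperonin genes 12 were higher, led by dnj-13 (0.89), and 2 lower, with counts of 5 to 7 higher without high dose replicate 1, 2 or 3 or low dose replicate 1 or 3. In the list of endoplasmic reticulum folding and stress 5 of 23 genes were higher, among them xbp-1 (0.61) and the kinase gene pek-1 (0.90) of the unfolded protein response, and 3 were lower. The pek-1 call was lost without low dose replicate 3.

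Genes of the proteasome, the complex that degrades ubiquitin-tagged proteins, all lay on one side. All 31 measured subunits had a positive difference, between 0.11 and 0.85, and 13 of them were called higher by limma and 0 lower. At an unadjusted limma p under 0.05 these counts were 28 and 0. The ubiquitin receptor gene rpn-13 read 12.45, 12.58 and 12.25 at the low dose against 13.30, 13.35 and 13.19 at the high dose. The median difference of the list was 0.40, against -0.01 for all genes. The count of called subunits varied with the setting, from 6 without low dose replicate 3, 7 without high dose replicate 2 and 8 without high dose replicate 1 to 23 with quantile normalization and 27 with a variance trend and robust estimation. Of 28 ubiquitin conjugating and deubiquitinating enzyme genes 5 were higher (3 without high dose replicate 1 or 3 or low dose replicate 3) and 1 lower (0 without any 1 array other than low dose replicate 2), and the polyubiquitin gene ubq-1 stood 0.85 (SE 0.10) higher.

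Autophagy genes, which build the membrane that encloses material for the lysosome, were more often called higher than lower, with 19 of 34 not called. The gene bec-1, homolog of Beclin 1, read 11.10, 11.00 and 11.17 at the low dose against 12.79, 12.85 and 12.90 at the high dose. The LC3 homolog lgg-2, which coats the membrane, stood 1.89 (SE 0.15) higher, the cargo adaptor gene sqst-1 1.71 (SE 0.14) and epg-9, of the initiating complex, 1.96 (SE 0.18). In lgg-2 and epg-9 the low dose and control arrays overlapped. The list of 34 genes, matched by symbol, had 13 higher and 2 lower, with a median difference of 0.43. It holds atgp-1 and atgp-2, which encode subunits of amino acid transporters, and without these 12 of 32 were higher and 1, sqst-2, was lower. Leaving out any 1 array gave 13 to 15 higher.

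Lysosomal proteases and the V-ATPase, the pump that acidifies lysosomes, went the other way. Of 53 genes 24 were lower and 2 higher, with a median difference of -0.39. The cathepsin B-like gene cpr-4 read 13.79, 13.55 and 13.46 at the low dose against 12.12, 11.83 and 11.62 at the high dose, and cpr-5 fell by 1.66 (SE 0.12). The V-ATPase subunit gene vha-12, chosen after its values were seen, fell by 1.27 (SE 0.12). Of the 2 higher genes 1 reached a 2 fold difference, and the other, the cathepsin L gene cpl-1, stood 0.63 higher. Neither was called higher without high dose replicate 1, and the cpl-1 call was also lost without low dose replicate 3. The acid phosphatase family gene acp-6, outside the lists, fell by 3.17 (SE 0.13) from low dose arrays of 13.52, 13.67 and 13.24. Intestinal genes also moved, as given below, and many lysosomal genes are expressed in the intestine. The part of tissue composition in these counts was not tested.

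Genes for regulators of stress responses were more often higher. Of 42 listed regulators 15 were higher and 1, the bZIP gene zip-11, was lower, with a median difference of 0.54. The FoxA factor gene pha-4 read 8.86, 8.58 and 8.54 at the low dose against 10.51, 10.54 and 10.72 at the high dose. The kinase gene mek-1, of the JNK pathway of heavy metal stress, stood 1.43 (SE 0.21) higher, and wdr-23, whose product holds SKN-1 activity down, stood 1.06 (SE 0.16) higher. For skn-1 itself the difference was 0.73 (adjusted p = 0.0949, limma), for hsf-1 0.51 (adjusted p = 0.175, limma) and for daf-16 0.16, with an interval from -0.27 to 0.59. Of 280 bZIP and nuclear hormone receptor genes 48 were higher and 11 lower. The lower count was 4 to 6 without any 1 array other than control replicate 1 and high dose replicate 2.

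**Figure D4:**
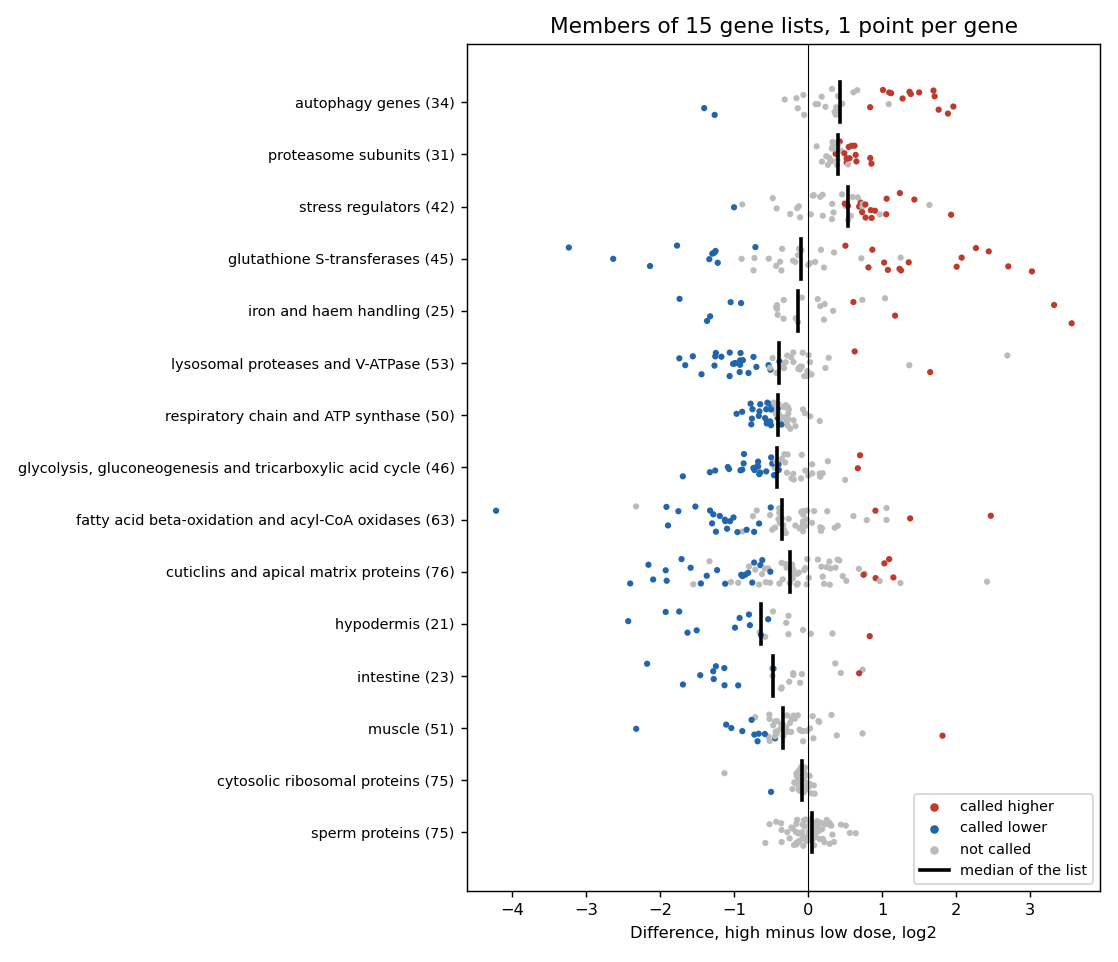
Difference between the doses (high minus low, log2) for each measured member of 15 lists, with called genes in colour and a black line at the list median. Proteasome members all lie to the right of 0, respiratory chain members mostly to the left, and most cytosolic ribosomal protein members near 0, in a range from -1.13 to 0.09.

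Immune genes were split as well. Over all genes tested 7.34% were called higher and 9.49% lower. Of 91 innate immune effector genes 15 were higher and 15 lower. The antimicrobial peptide family gene fipr-26 read 8.23, 8.66 and 8.82 at the low dose against 12.32, 12.23 and 11.87 at the high dose, and irg-2, induced by infection, stood 2.18 (SE 0.29) higher. The saposin-like gene spp-23 fell by 2.32 (SE 0.22). Of 220 C-type lectin genes, many of which respond to pathogens, 15 were higher, led by clec-74 (2.43, SE 0.14), and 28 lower, led by clec-56, which fell by 3.12 (SE 0.15). The count of higher lectin genes was 6 without high dose replicate 2 and 8 without high dose replicate 3 or low dose replicate 1. Of 395 F-box A and BTB-MATH adaptor genes, which pick proteins for ubiquitination, 28 were higher and 11 lower (6 lower without low dose replicate 1), although 226 of them were dim. The shares of higher lectin genes (6.82%) and higher adaptor genes (7.09%) lay near that of all genes. Of 23 pals genes, linked to the response to intracellular pathogens, 1 was higher and 0 lower (2 and 2 at an unadjusted limma p under 0.05, and 0 higher without high dose replicate 2 or 3 or low dose replicate 3).

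Genes of central carbon metabolism were more often lower than higher at the high dose. Of 46 genes of glycolysis, gluconeogenesis and the tricarboxylic acid cycle 23 were lower and 2 higher, with a median difference of -0.42. The gene pck-1, for phosphoenolpyruvate carboxykinase of gluconeogenesis, read 12.55, 12.69 and 12.46 at the low dose against 10.63, 10.88 and 11.10 at the high dose. The fructose bisphosphatase gene fbp-1 fell by 1.26 (SE 0.12) and the lactate dehydrogenase gene ldh-1 by 1.33 (SE 0.27). The lower count was 15 when only the 6 arrays of the 2 doses were fitted.

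Genes of the respiratory chain and ATP synthase were lower in 23 of 50 cases and higher in 0, with a median difference of -0.41. At an unadjusted limma p under 0.05, 38 were lower and 0 higher. The complex I subunit gene gas-1 read 12.65, 12.64 and 12.59 at the low dose against 11.51, 11.85 and 11.61 at the high dose, and the succinate dehydrogenase gene sdha-1 fell by 0.89 (SE 0.16). The lower count was 15 without high dose replicate 3 or low dose replicate 2, 14 with only the 6 arrays fitted, and 36 with a variance trend and robust estimation. Of 59 mitochondrial ribosomal protein genes 9 were lower and 1 higher (20 and 1 at an unadjusted limma p under 0.05), and 3 to 5 were lower without high dose replicate 1 or 2 or any 1 low dose replicate.

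Of 63 genes of beta-oxidation and acyl-CoA oxidases 20 were lower and 3 higher. Besides acox-1.2, the peroxisomal genes acox-1.1 (fell by 1.90), acox-3 (fell by 1.75) and maoc-1 (fell by 1.53) were lower, while acdh-2, an acyl-CoA dehydrogenase gene, stood 2.47 (SE 0.48) higher from a dim level. Of 35 genes of fatty acid synthesis, desaturases and elongases 9 were lower and 4 higher (2 higher with only the 6 arrays fitted, or without any 1 array other than control replicate 3 or low dose replicate 2). Among the higher were fasn-1, for fatty acid synthase, which read 13.25, 12.84 and 12.92 at the low dose against 13.73, 14.21 and 14.57 at the high dose, and sbp-1, for the SREBP factor that drives lipid synthesis (0.61). The lipase gene lips-6 fell by 3.30 (SE 0.12) and the lysosomal lipase gene lipl-1 by 2.32, and 9 of 43 genes of lipases, fatty acid binding proteins and vitellogenins were lower and 5 higher (3 higher without high dose replicate 2 or low dose replicate 1).

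The yolk genes vit-2 and vit-6 were higher at the high than at the low dose but stood highest in control worms. For vit-2 the low dose arrays read 8.72, 9.40 and 9.38, the high dose arrays 10.18, 10.85 and 10.41 and the control arrays 10.96 to 11.42. The vit-6 difference (0.82, SE 0.18) was not called without high dose replicate 2 or 3 or low dose replicate 1 or 3. Of 20 genes listed by symbol as osmolyte, inositol and trehalose genes 8 were lower, among them hmit-1.1. The lower genes also include pud-3 (fell by 3.58, SE 0.12), of the pud family, for which no osmolyte function is given here. In the same list 4 were higher, among them the trehalose synthase gene tps-2 (0.98). The higher count was 2 without high dose replicate 1 or 2 or low dose replicate 3, and with only the 6 arrays fitted.

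Genes of the cuticle and of the apical matrix of the skin were more often lower. Of 146 cuticle collagen genes 24 were lower (38 with a variance trend and robust estimation) and 15 higher, the latter count being 8 without high dose replicate 1 or 2. The collagen gene dpy-2, of the furrows between cuticle rings, read 12.12, 12.45 and 12.16 at the low dose against 10.49, 10.20 and 10.24 at the high dose, and dpy-7 fell by 1.63 (SE 0.21). Of 76 cuticlin and apical matrix genes 20 were lower and 5 higher. The fibrillin-like gene fbn-1, used in moulting, fell by 2.41 (SE 0.22) and mlt-10, also of moulting, by 1.93. Of 82 hedgehog-related and patched-related genes, many active in the hypodermis, 26 were lower and 9 higher, with 16 or 17 lower without high dose replicate 2 or low dose replicate 2 or 3, and 5 higher without high dose replicate 1 or 3 or low dose replicate 1. The warthog gene wrt-10 read 13.11, 13.24 and 13.29 at the low dose against 10.97, 10.78 and 10.58 at the high dose. Of 41 astacin and ADAM-type metalloprotease genes 4 were lower, with nas-27 farthest, and 5 higher (3 without high dose replicate 1 or 3 or low dose replicate 3). These shares are 9.76% and 12.2%, against 9.49% lower and 7.34% higher of all genes tested.

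Markers of the hypodermis, intestine and muscle were also more often called lower than higher. Some are counted above too, such as dpy-7 among both cuticle collagens and hypodermis markers. The counts of these lists are thus not independent of those above. Of 21 hypodermis markers 11 were lower and 1, the adult collagen gene col-19, was higher, with a median difference of -0.64. Of 23 intestine markers 10 were lower and 1, the GATA factor gene elt-7, was higher, with a median of -0.47. The intestinal filament gene ifp-1 fell by 1.46 (SE 0.11) and the sodium-proton exchanger gene nhx-2 by 1.28. Other defining intestine genes did not pass the test, with ges-1 at -0.11 (interval -0.52 to 0.30) and elt-2 at 0.73 (adjusted p = 0.0963, limma).

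Of 51 muscle markers 10 were lower (20 with a variance trend and robust estimation) and 1 higher. The attachment genes went apart, since unc-95 fell by 2.33 (SE 0.18) and pat-4 by 1.04, while unc-97 read 11.99, 12.33 and 12.30 at the low dose against 14.05, 13.92 and 14.10 at the high dose. The myosin gene unc-54 differed by -0.30 (adjusted p = 0.109, limma). Of 79 neuron markers 6 were lower and 1 higher (0 higher without any 1 array other than high dose replicate 1 or low dose replicate 2), led by unc-36 (fell by 1.38) and unc-18, and osm-8, also lower, was matched by symbol but encodes a mucin-like protein of the hypodermis. Of 96 neuropeptide and insulin-like peptide genes 5 were higher and 7 lower (4 lower without high dose replicate 2 or low dose replicate 1 or 3, and 2 or 3 higher without any 1 array other than control replicate 2 or 3 or low dose replicate 2). The insulin-like genes ins-11 (2.68 higher, SE 0.16) and ins-35 (fell by 2.93, SE 0.28) had the largest differences in this list. Its shares, 5.21% higher and 7.29% lower, lay below those of all genes, 7.34% and 9.49%. So did those of the neuron markers, 1.27% and 7.59%. The part of tissue amounts in the other counts was not tested.

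Few genes of translation, splicing and the cell cycle were called, against 16.8% of all genes tested. Of 75 cytosolic ribosomal protein genes 0 were higher and 1, rpl-41.1, lower, with a median difference of -0.08, and rpl-4 differed by 0.01 with an interval from -0.25 to 0.26. Their signals, with a median near 15.6, lay close to the highest value on the arrays. Of 74 translation factor and tRNA synthetase genes 3 were higher and 1 lower, of 38 genes of ribosome biogenesis and RNA polymerases I and III 1 was higher and 2 lower, and of 55 splicing factor genes 0 were higher and 2 lower. The higher count of translation factors was 0 or 1 without any 1 array other than control replicate 1. That of lower splicing factors was 0 or 1 without any 1 array other than high dose replicate 2 or 3. At an unadjusted limma p under 0.05 more genes were lower than higher, with 12 lower and 4 higher translation factor and tRNA synthetase genes, 11 lower and 2 higher splicing factor genes, and 1 lower and 0 higher cytosolic ribosomal protein genes. Of the 2 lower genes of ribosome biogenesis 1, lpd-5, encodes a complex I subunit.

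Of 74 cell cycle and DNA replication genes 1 was higher and 3 lower, and of 35 histone genes 1 was higher and 2 lower. Of 72 germ line and oocyte genes 3 were higher and 6 lower, with the germ granule helicase gene glh-1 falling by 0.69 (SE 0.11). These shares are 4.17% and 8.33%, against 7.34% and 9.49% of all genes tested, so the lower share lay near that of all genes. With 1 array left out, 1 to 2 cell cycle genes and 3 to 4 germ line genes were lower, 0 to 2 histone genes were higher and 0 to 2 lower. At an unadjusted limma p under 0.05 the cell cycle list had 14 lower and 2 higher, the germ line list 13 lower and 4 higher, and the histones 7 each way. Of 75 sperm protein genes 0 were called by limma or by the unmoderated model, and 2 were higher and 3 lower at an unadjusted limma p under 0.05. Of 13 reference genes 2, tba-1 (fell by 0.41) and gpd-2 (fell by 0.40), were lower and 0 higher (3 and 1 at an unadjusted limma p under 0.05), and both calls were lost without any 1 of the 6 arrays compared. The actin gene act-3 differed by -0.20 with an interval from -0.46 to 0.06.

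The control probesets for actin differed between the doses by 0.00 at the 3' end, -0.18 in the middle and -0.39 at the 5' end. In the same order those for GAPDH differed by -0.24, -0.425 and -0.38. Those for ubiquitin differed by 1.13, 1.40 and 1.56, with the 5' end highest, and those for catalase by 1.47, 1.54 and 1.24. These values, which follow RNA integrity as well as level, are given without a test.

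Genes the study itself chose for RNAi, mutant or qRT-PCR tests were mostly higher at the high dose. Of 18 such genes measured on a probeset of their own 14 were higher and 1, dnj-11, was lower, with a median difference of 1.22. Since the study picked them from these same samples, their direction is no independent evidence. The transferase gene gst-30 read 12.32, 12.45 and 12.27 at the low dose against 14.45, 14.50 and 14.30 at the high dose, and gst-12 stood 1.25 (SE 0.11) higher. The calls of hsp-16.41 (0.63 higher), dac-1 (1.12 higher) and dnj-11 (fell by 0.65) were each lost without several single arrays: without low dose replicate 3 or high dose replicate 3 in all of them, without high dose replicate 1 in hsp-16.41 and dnj-11, without high dose replicate 2 in hsp-16.41 and dac-1, without low dose replicate 1 in hsp-16.41, without low dose replicate 2 in dnj-11 and dac-1, and without any 1 control replicate in dac-1. Besides mtl-1, the genes kgb-2 (0.96, adjusted p = 0.0907, limma) and clec-163 (2.58, adjusted p = 0.101, limma) did not pass the test, although their high and low dose arrays did not overlap. The control arrays of clec-163 spread from 3.33 to 7.10, and they share the estimate of its error.

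In some genes the control level lay between the doses. The genes here were picked for that pattern, so their values are a description. For pgp-1 the control arrays read 8.47 to 8.69, below the low dose arrays (9.75 to 9.97) and above the high dose arrays (7.22 to 7.96), and it was called in all 3 comparisons. The folate transporter family gene folt-2 read 11.88, 11.50 and 11.85 at the low dose, 10.60 to 10.99 in control worms and 8.82, 8.88 and 8.14 at the high dose. The genes fbxa-131, cest-30 and gtnt-51, picked for the same pattern, were dim at the high dose. The genes ifas-2, ptr-21 and K01D12.1, picked for the reverse pattern, were dim at the low dose.

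**Figure D5:**
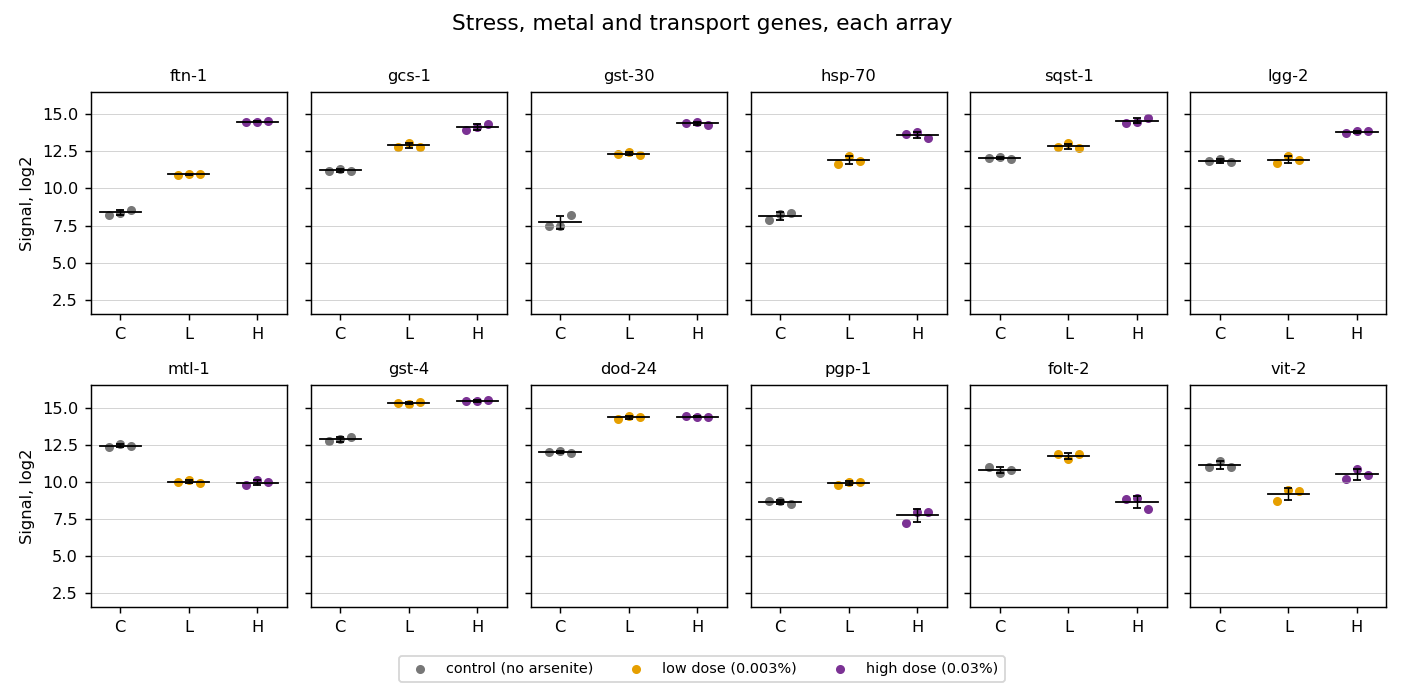
Log2 signal on each of the 9 arrays for 12 genes of stress, metal handling and transport (C control, L low dose, H high dose). Points are arrays, lines group means and error bars 1 SD (n = 3). The high dose lies above the low dose from ftn-1 to lgg-2, the doses lie together in mtl-1, gst-4 and dod-24, and the control lies between the doses in pgp-1 and folt-2 and highest in vit-2.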

How the data were processed

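The authors deposited log2 signals for each probeset, summarized from scanned arrays before deposition. The methods name RMA in Partek Genomics Suite, while the submitters' processing notes name MAS5 and Partek 6.4, so the background correction behind these log2 values is not settled, and dim signals would be most affected. No scaling was added.

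Probesets without a gene (895), with several genes (887) and Affymetrix controls (77) were left out. Gene symbols came from the platform annotation, updated through RefSeq (WBcel235, names only). limma 3.58.1 in R 4.3.3 (lmFit, eBayes) fitted the 3 groups of 9 arrays in one model without covariates, with 6 residual degrees of freedom per gene. The high against low dose contrast was adjusted by Benjamini and Hochberg's method over 17118 genes. Calls needed an adjusted p of at most 0.05 and 1.2 fold. The control arrays enter only the estimate of the spread. The test was tried on simulated data. Figures used matplotlib 3.10.9.

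Genes named one by one were the 20 largest called changes each way with a bright signal and arrays that do not overlap, the 5 largest at any brightness, up to 4 called members each way per list, the study's tested genes, and 10 genes each way with the control between the doses. The lists (48, by gene symbol) and genes were chosen with earlier results of these data known. Alternatives were an unmoderated model, a variance trend with robust estimation, only the 6 arrays, a replicate block, other fold thresholds, no dim genes, quantile normalization, centring, the mean of probesets, unmarked probesets only, and each array left out. Promoter sequences were not analysed here. The precision is limited by the number of arrays, 3 per group.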

Additional observations from a re-analysis of the deposited data

Results flagged for a closer look

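Some probesets outside the tested genes lay above both the low dose and the control arrays at the high dose. They are Affymetrix control probesets of worm genes and probesets assigned to several genes, and no cause is given here. The catalase control probesets differed by 1.47 (3' end), 1.54 (middle) and 1.24 (5' end) on the log2 scale, and the low dose arrays lay at the control level. The ubiquitin control probesets differed by 1.13 (3' end), 1.40 (middle) and 1.56 (5' end). These control probesets were not tested.

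Of 887 probesets assigned to several genes 89 passed the test, 44 of them higher with the high dose and 45 lower. That is a smaller share than the 16.8% called among all genes tested. These probesets were fitted apart, with the adjustment over the 887 alone. The probeset shared by numr-2 and numr-1, genes of the metal response, had a control mean of 7.735, a low dose mean of 12.58 and a high dose mean of 14.85, so the doses differed by 2.27. That shared by the catalase genes ctl-1 and ctl-3 stood at 12.06, 12.04 and 13.25 and differed by 1.22. Both probesets shared by fipr-22 and fipr-23 were higher, by 3.71 and 6.02, the second from a dim level, and those shared by the heat shock genes F44E5.5 and F44E5.4 by 1.37 and 1.25. The probeset of hsp-16.11 and hsp-16.1 differed by 0.74 and that of pgph-2, pgph-3 and pgph-1 by 1.63. Among the 45 lower, the probeset shared by chil-19 and chil-21 differed by -3.69 and was dim at the high dose. Those shared by pud-1.1 and pud-1.2 and by pud-2.1 and pud-2.2 differed by -2.80 and -2.09, and that of B0365.9 and clec-225 by -2.42.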

How the results depend on the processing

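The counts of genes called, higher and lower (2880, 1256 and 1624) stayed within 1.5 times under all alternatives but 2. A 2 fold threshold gave 1288 called, 635 higher and 653 lower, and the use of unmarked probesets alone, which tests fewer genes, gave 1756, 792 and 964. Each array left out gave 2096 to 2532 called, 840 to 1131 higher and 1194 to 1410 lower. Fitting only the 6 arrays of the 2 doses, without the controls, gave 2128 called, 974 higher and 1154 lower. Same-numbered samples did not deviate together (correlations from -0.0252 to 0.0334), and the replicate block gave 2345 genes. Of 316 called genes named, 235 were called in the same direction under all alternatives in which they were tested, fold thresholds aside, and 81 lost the call at least once. The differences of cdc-25.2 (0.12) and perm-4 (-0.025) turned with the mean of a gene's probesets, and those of perm-4 (-1.42) and bub-3 (0.017) with unmarked probesets alone. The cause was not tested. Signals near the highest value may compress differences, and those of dim genes were the least precise.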
